A study of Mus musculus with 96 samples.

Results

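The proteasome subunits and their helper proteins were followed in the liver of mice on a calorie-restricted or a control diet. Members were the genes whose array annotation gives a symbol starting with Psma, Psmb, Psmc, Psmd, Psme, Psmf or Psmg and a number. The pattern found 49 of the 14816 genes measured, and 47 of these encode proteasome proteins. Psmc3ip and Psme3ip1 match by their letters alone, encode interacting proteins and are given apart. Of the 47 genes, 8 are Psma, 8 are Psmb without the immunoproteasome, 3 are immunoproteasome subunits (Psmb8, Psmb9, Psmb10), 6 are Psmc and 11 are Psmd subunits. A further 3 are chaperones named Psmd5, Psmd9 and Psmd10, 3 are Psme activators, 1 is Psmf1 and 4 are Psmg chaperones. Psme2 is measured by a probe set shared with another symbol and was not used here.

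The study held male mice of 6 strains, with 8 mice on a diet restricted by 25% in calories and 8 on the control diet in each strain, and 1 array per mouse. 5 strains were inbred (CBA/J, DBA/2J, 129S1/SvImJ, C3H/HeJ and C57BL6/J), and B6C3F1/J is the cross whose parents are C57BL6/J and C3H/HeJ. Mice arrived at 6 weeks of age, lived 1 to a cage and all received the same purified food at 84 kcal a week for 2 weeks. Restriction began at 8 weeks, and tissues were taken at 22 weeks of age. Values are log2 of the deposited array signal, and a difference is restricted minus control with its standard error (SE). A gene was called when its limma p, adjusted over all 14816 genes, was under 0.05. Signals of different probe sets are not on a common scale, so levels were compared only within a gene.

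The proteasome is the protease that degrades most ubiquitin-tagged proteins of the cell. Its barrel-shaped core, the 20S particle, is built from rings of alpha subunits (Psma genes) and of beta subunits (Psmb genes), and Psmb5, Psmb6 and Psmb7 carry the cutting sites. The 19S regulatory particle caps the barrel, where a ring of ATPases (Psmc genes) unfolds the substrate, and non-ATPase subunits (Psmd genes) bind and remove the ubiquitin chains. Interferon gamma induces Psmb8, Psmb9 and Psmb10, which replace the 3 cutting subunits and alter the peptides made for antigen presentation. In liver this immunoproteasome is found in resident immune cells and, when induced, in hepatocytes.

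A pair of arrays stood apart from the rest. DBA/2J restricted replicate 6 had a median log2 signal of 8.29 and B6C3F1/J control replicate 2 one of 8.66, against 6.21 to 7.5 in the other arrays. The DBA/2J array was the lowest of its group in 33 of 47 members and the B6C3F1/J array in 44. In CBA/J the array median averaged 7.29 in restricted mice and 6.52 in control mice, and all 7 hepatocyte markers were called higher in restricted mice (median difference 1.51). Within groups, a member's signal ran against the array median, with a median r of -0.53 over the 47 genes and of 0.06 over all genes (96 arrays, all sharing their scaling). Without the 2 arrays these were -0.08 and 0.06. The Gapdh 3′ minus 5′ signal, a sign of RNA quality, was 2.51 in DBA/2J restricted replicate 6, and averaged -0.03 ± 0.16 in CBA/J restricted mice and -0.40 ± 0.07 in CBA/J control mice (SD, n = 8 each). Its part in the results was not tested. Hepatocyte markers were well above the array median in every group. In liver tissue, fewer cells of a type and less RNA per cell cannot be told apart.

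Averaged over the 6 strains, the genes of the 19S particle were mostly lower in restricted mice, though not in every strain. Those of the 20S core were mostly not changed enough to be called. Of 17 genes of the 19S particle, 12 fell and 1 rose, with a median difference of -0.22. Of 16 genes of the 20S core outside the immunoproteasome, 1 fell and 1 rose, with a median of 0.08. Over all 47 genes, 15 were called lower and 6 higher, 21 in all. Among all genes tested, 12.4% were called lower and 15.2% higher (27.6% in all), and the median difference was 0.07. The split was 11 lower and 8 higher under quantile normalization (11.3% and 11.7% of all genes). With arrays centred on their 75th percentile it was 11 lower and 6 higher (11.6% and 12.4%). A fit that holds the array median as a covariate turned the balance to 11 lower and 13 higher, with a member median of 0.09. In that fit 11.9% of all genes were lower and 17.2% higher. It left 9 of the 17 genes of the 19S particle lower and 2 higher. The genes called higher were Psmb5, Psmb10, Psmd9, Psmd13, Psme1 and Psmf1. The 2 interacting proteins were not called (Psmc3ip -0.14 ± 0.25, Psme3ip1 0.09 ± 0.05). Without the 2 arrays that stood apart, 17 members were lower and 11 higher (15.1% and 18.7% of all genes). Of the 19S particle, 12 were then lower and 1 higher. Without CBA/J, 10 of the 15 lower and all 6 higher calls stayed. Within strains, the 19S median was -0.51 in 129S1/SvImJ, -0.41 in C57BL6/J, -0.31 in CBA/J, -0.16 in DBA/2J, -0.06 in C3H/HeJ and 0.25 in B6C3F1/J. In B6C3F1/J 14 of the 17 genes lay above 0, and their median was 0 without the 2 arrays that stood apart.

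**Figure D1:**
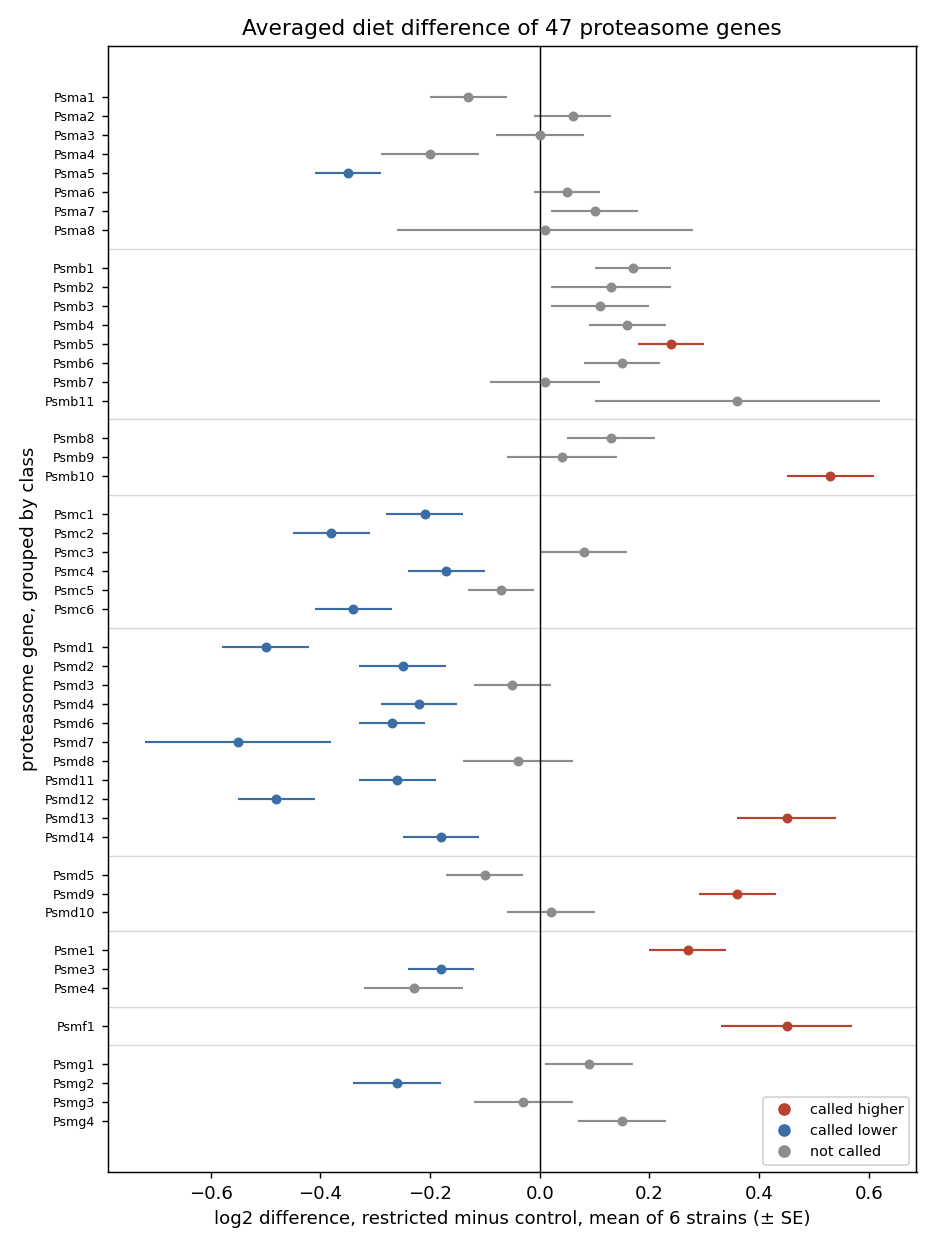
Averaged diet difference of each proteasome gene. Points give the log2 difference, restricted minus control, averaged over 6 strains, and lines its SE, with genes grouped by class down the page and coloured by the limma call. The Psmc and Psmd classes lie mostly left of 0, with a median of -0.22 over 17 genes, and the 16 core genes lie around 0, with a median of 0.08.

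The 2 leading genes of the 19S particle were Psmd12, a lid subunit, and Psmd1, the large scaffold of the base. Psmd12 was 0.719 times its control level in restricted mice (log2 -0.48 ± 0.07 SE, adjusted p = 4.58e-08). It was below 0 in all 6 strains. In CBA/J its signals ran from 10.76 to 11.34 (median 11.19) in restricted mice and from 11.69 to 12.68 (median 12.04) in control mice. In 129S1/SvImJ the range was 11.29 to 11.98 (median 11.53) in restricted mice, against 12.02 to 12.67 (median 12.19) in control mice. The diets did not overlap in either strain. In C57BL6/J restricted mice held 11.43 to 12.42 (median 11.51), and control mice 12.06 to 12.54 (median 12.32), with some overlap.

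Psmd1 was 0.707 times its control level on average (log2 -0.50 ± 0.08, adjusted p = 8.4e-08), and its change was uneven between strains. In 129S1/SvImJ it ran from 11.02 to 11.46 (median 11.31) in restricted mice and from 12.03 to 12.57 (median 12.27) in control mice. The C57BL6/J signals were 10.70 to 11.57 (median 10.86) in restricted mice and 11.73 to 12.15 (median 11.92) in control mice. Neither strain showed any overlap between diets, and the log2 differences were -1.02 ± 0.19 in 129S1/SvImJ and -0.94 ± 0.19 in C57BL6/J. In CBA/J, by contrast, restricted mice held 11.55 to 12.11 (median 11.86) and control mice 11.64 to 12.03 (median 11.85), which overlap throughout. In DBA/2J the difference was -0.80 ± 0.19, and -0.46 ± 0.11 without the 2 arrays (adjusted p = 0.00213), but it was not called in a fit of the DBA/2J groups alone.

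Psmd7, a lid subunit that pairs with the deubiquitinase Psmd14, had the most negative average of all members. Its fitted difference was -0.55 ± 0.17 (adjusted p = 0.00786), and without the 2 arrays it was -0.52 ± 0.05 (adjusted p = 8.87e-17). The call was lost under quantile normalization (-0.51, adjusted p = 0.0998), when CBA/J was left out (-0.47, adjusted p = 0.0879) and with the mean of probe sets (-0.20, adjusted p = 0.177), and the value was -0.27 with the array median as a covariate. DBA/2J restricted replicate 6 lay far below the rest, so that DBA/2J restricted mice ran from 4.29 to 10.70 (median 10.50), against 10.39 to 10.95 (median 10.87) in control mice. In B6C3F1/J the sign turned, from 0.25 ± 0.41 with all arrays to -0.35 ± 0.12 without the 2 arrays. In 129S1/SvImJ, C57BL6/J and CBA/J the differences (-0.64, -0.69 and -0.93) were called without the 2 arrays and not with all arrays.

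Among the ATPases, Psmc2 fell to 0.771 times (log2 -0.38 ± 0.07, adjusted p = 3.5e-06) and Psmc6 to 0.792 times the control level (log2 -0.34 ± 0.07, adjusted p = 0.000108). Both were below 0 in all 6 strains. In CBA/J Psmc2 signals were 11.76 to 12.34 (median 11.96) in restricted mice and 12.37 to 13.08 (median 12.78) in control mice, with no overlap. Psmc6 in CBA/J was 11 to 12.12 (median 11.61) in restricted mice and 11.72 to 12.95 (median 12.18) in control mice, and these ranges overlap. Psmc1 (-0.21 ± 0.07) and Psmc4 (-0.17 ± 0.07, adjusted p = 0.0497) were also called lower. Psmc4 lay so close to the threshold that it kept its call in 6 of 13 other settings. A further Psmc4 probe set, with a mean signal of 10.56, fell by more (-0.70 ± 0.12, adjusted p = 2.76e-06 in a limma fit of every probe set). Psmc1 kept it in 9 of 13, and was -0.09 without CBA/J (adjusted p = 0.483) and -0.05 with the mean of probe sets (adjusted p = 0.851). Psmc3 (0.08, 95% interval -0.07 to 0.23) and Psmc5 (-0.07 ± 0.06) were not called.

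The other lower Psmd genes were Psmd2, the second scaffold of the base, Psmd4, a ubiquitin receptor, Psmd14, which cuts ubiquitin chains off the substrate, and the lid subunits Psmd6 and Psmd11. Their differences lay between -0.27 and -0.18, and Psmd14 kept its call in 9 and Psmd4 in 11 of 13 other settings. Psmd3 (-0.05, 95% interval -0.18 to 0.08) and Psmd8 (-0.04, interval -0.24 to 0.17) were not called. Psmd13, also a lid subunit, went the other way at 1.37 times the control level (log2 0.45 ± 0.09, adjusted p = 7.75e-05) and was above 0 in all 6 strains. In CBA/J its signals were 11.02 to 11.94 (median 11.48) in restricted mice and 10.42 to 11.41 (median 10.66) in control mice. A further Psmd13 probe set was called in the same direction (0.32 ± 0.08).

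**Figure D2:**
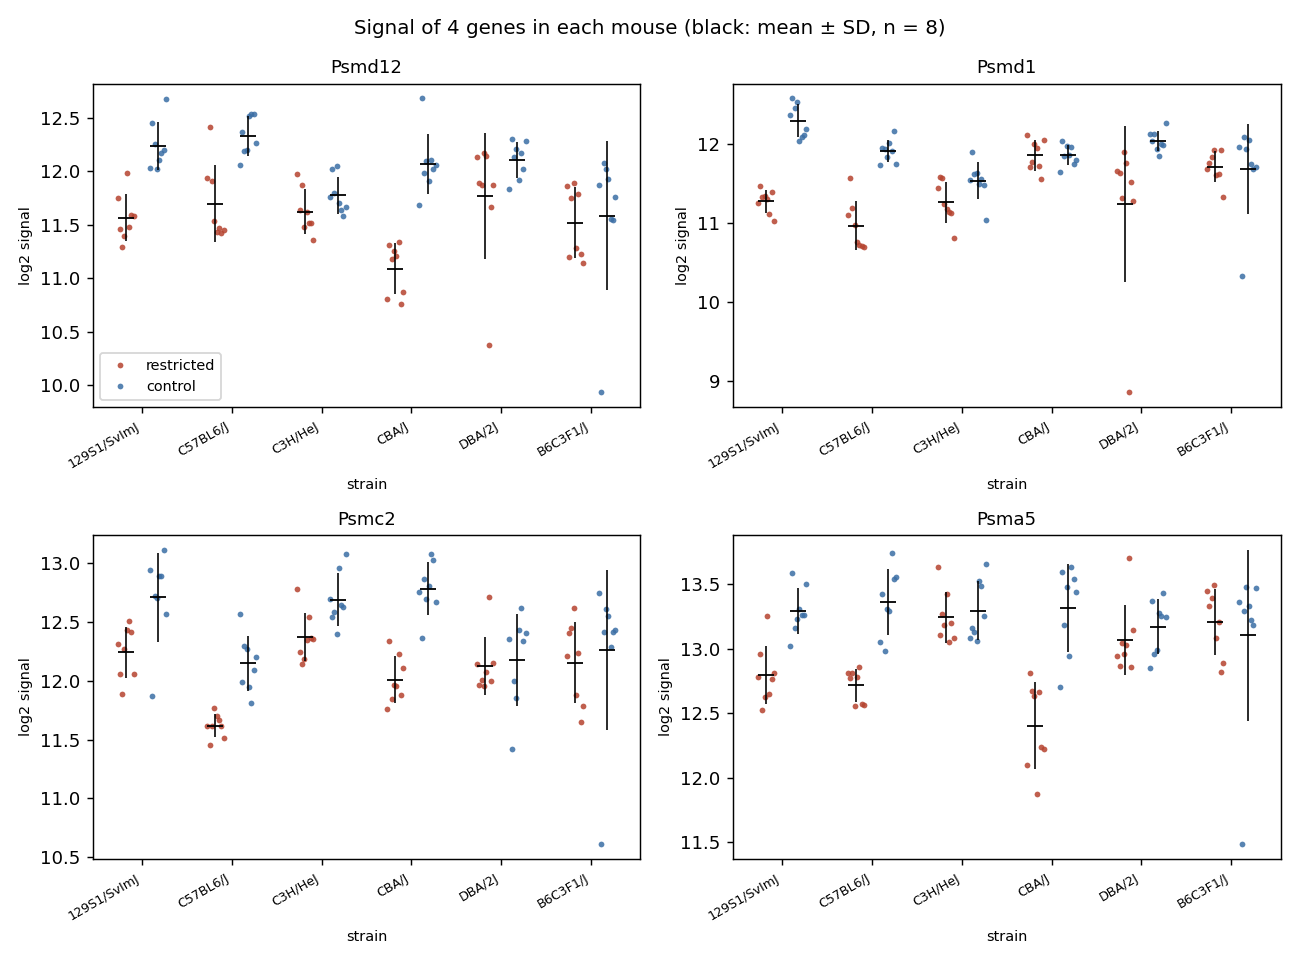
Signal of Psmd12, Psmd1, Psmc2 and Psma5 in each mouse. Points give the log2 signal of each mouse by strain, restricted left of control, and black marks the mean ± SD of 8 mice. In 129S1/SvImJ all restricted mice lie below all control mice for Psmd12 and Psmd1, while Psmd1 overlaps fully in CBA/J. B6C3F1/J control replicate 2 is the lowest of its group in all 4 panels, while DBA/2J restricted replicate 6 is the lowest of its group for Psmd12 and Psmd1 and the highest for Psmc2 and Psma5.

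Promoters of 2 lower 19S genes and of 1 immunoproteasome gene are shown as examples from the 2 classes on which the results turn. Each of them holds a motif searched, which is not typical of its class. Sequences are the 250 bases before the start of the gene in RefSeq on build GRCm38.p6, which gave promoters for 39 of the 47 genes. The motifs searched on both strands were TGACNNNGC, the core of the antioxidant response element bound by Nfe2l1, CCAAT, bound by NF-Y, and the core of the interferon-stimulated response element (GAAA repeated after 2 bases). Capitals mark matches, and no matches overlap in the promoters printed.
Psmd12: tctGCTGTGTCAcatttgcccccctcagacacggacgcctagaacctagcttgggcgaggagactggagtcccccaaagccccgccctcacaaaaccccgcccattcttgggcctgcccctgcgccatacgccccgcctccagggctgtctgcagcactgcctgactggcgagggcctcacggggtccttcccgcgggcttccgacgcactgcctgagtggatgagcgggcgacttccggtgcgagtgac
Psmc6: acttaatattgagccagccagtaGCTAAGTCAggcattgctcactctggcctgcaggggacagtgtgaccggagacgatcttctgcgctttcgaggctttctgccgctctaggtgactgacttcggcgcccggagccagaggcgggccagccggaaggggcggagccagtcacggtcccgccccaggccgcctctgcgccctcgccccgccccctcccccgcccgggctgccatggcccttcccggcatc
Psmb9: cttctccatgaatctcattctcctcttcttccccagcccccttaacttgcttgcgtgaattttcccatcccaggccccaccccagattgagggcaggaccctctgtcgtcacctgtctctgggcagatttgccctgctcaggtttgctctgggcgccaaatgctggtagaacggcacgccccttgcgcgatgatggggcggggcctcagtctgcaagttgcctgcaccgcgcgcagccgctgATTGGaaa
They lie at chr11:107479278-107479527, plus strand (Psmd12), chr14:45329574-45329823, plus strand (Psmc6) and chr17:34187331-34187580, minus strand (Psmb9). Psmd12 and Psmc6 hold TGACNNNGC on the opposite strand, and Psmb9 holds CCAAT on the opposite strand.

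TGACNNNGC occurred in 5 of the 39 genes with a promoter, Psmb5, Psmb6, Psmc6, Psmd9 and Psmd12, and in 10.2% of the 32851 promoters listed for all genes. These members differ in direction, since Psmc6 and Psmd12 were lower, Psmb5 and Psmd9 higher and Psmb6 not called. Of the 14 genes of the 19S particle with a promoter, 2 held TGACNNNGC, and both promoters are printed above. CCAAT was in 14 of 39 genes and in 33.8% of all promoters. It was in 7 of 12 core genes, in 4 of 14 genes of the 19S particle and in 1 of 3 immunoproteasome genes, the Psmb9 printed. The interferon-stimulated response element core was in 3 of 39 genes (2.98% of all promoters), and in 0 of the 3 immunoproteasome promoters. Members were counted by gene, on a match in any listed promoter (2 each for Psma6 and Psmc2), and shares of all by promoter. A match describes the letters of these windows only.

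In the 20S core, the alpha subunit Psma5 was the 1 gene called lower. Psma5 fell to 0.784 times its control level (log2 -0.35 ± 0.06, adjusted p = 5.52e-06), and a further probe set fell as well (-0.21 ± 0.05). In C57BL6/J its signals were 12.56 to 12.86 (median 12.78) in restricted mice and 12.98 to 13.74 (median 13.37) in control mice, with no overlap. In CBA/J restricted mice ran from 11.87 to 12.81 (median 12.44) and control mice from 12.70 to 13.64 (median 13.46), with a small overlap. The other 7 Psma genes were not called and lay between -0.20 and 0.10, but further probe sets of Psma6 (-0.28 ± 0.06, mean signal 12.78 beside 12.94 for the one used) and Psma3 (-0.49 ± 0.15, mean signal 7.55) were called lower. Psma8, a testis subunit, had a mean signal of 6.01, near the array median, so its values carry little information here.

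Of the beta subunits, Psmb5, which carries the chymotrypsin-like site, rose to 1.18 times its control level (log2 0.24 ± 0.06, adjusted p = 0.00188). In CBA/J Psmb5 ran from 11.52 to 12.56 (median 12.23) in restricted mice and from 11.61 to 11.76 (median 11.70) in control mice. The other 2 cutting subunits were not called. Psmb6 differed by 0.15 (95% interval 0.01 to 0.29, adjusted p = 0.0974), and Psmb7 by 0.01 (interval -0.20 to 0.21). All 8 Psmb genes lay above 0 (Psmb7 at -0.07 under quantile normalization and -0.01 on the 75th percentile), and without the 2 arrays Psmb1 (0.16), Psmb4 (0.16) and Psmb6 (0.14) were called higher too. Psmb11, the thymus subunit, had a mean signal of 5.61, below most array medians.

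Helpers of the proteasome moved in both directions. Psmd9, a chaperone that assembles the ATPase ring, rose to 1.29 times (log2 0.36 ± 0.07, adjusted p = 8.67e-06) and was above 0 in all 6 strains. With the mean of its probe sets the call was lost (0.29, adjusted p = 0.0583). In CBA/J its range was 11.01 to 11.52 (median 11.34) in restricted mice and 10.12 to 10.55 (median 10.42) in control mice, with no overlap. The other base chaperones were not called (Psmd5 -0.10 ± 0.07, Psmd10 0.02 ± 0.08). Psmf1, which encodes PI31 and was described as a proteasome inhibitor, rose to 1.37 times (log2 0.45 ± 0.12, adjusted p = 0.00142). One of its other probe sets was called higher (0.22 ± 0.08), while those with mean signals of 8.26 and 5.87 read -0.20 ± 0.13 and -0.58 ± 0.23 and were not called. The mean of its probe sets gave -0.03 (adjusted p = 0.86), so the direction rests on the choice of probe set. Psme1, a subunit of the interferon-inducible PA28 cap, rose by 0.27 ± 0.07 (adjusted p = 0.00185), and Psme3, the nuclear PA28 cap, fell by 0.18 on the log2 scale (adjusted p = 0.0179). Psmg2, a chaperone of alpha ring assembly, was lower (-0.26 ± 0.08, adjusted p = 0.0131). Its call was lost without CBA/J (-0.10, adjusted p = 0.567), and Psmg1, Psmg3 and Psmg4 were not called.

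The strains differed in how many members were called. In 129S1/SvImJ restricted mice 10 members were lower and 2 higher (2.47% and 2.79% of all genes, 5.26% in all), in C57BL6/J 5 were lower and 0 higher (1.85% and 1.86%, 3.71% in all), and in DBA/2J 3 were lower and 1 higher (4.45% and 2.3%, 6.75% in all). CBA/J had 10 lower and 7 higher members, but there 15.6% of all genes were lower and 25.1% higher (40.7% in all). Its split was 11 lower and 8 higher under quantile normalization (17.3% and 13.6%). On the 75th percentile it was 10 lower and 2 higher (17.6% and 17.8%). In B6C3F1/J 0 were lower and 5 higher (1.26% and 3.35%, 4.6% in all). On the 75th percentile 129S1/SvImJ had 4 lower and 1 higher (1.66% and 1.74% of all genes) and C57BL6/J 1 lower (0.999%). Array weights gave 15 lower in 129S1/SvImJ (4.66% of all genes) and 22 in C57BL6/J (9.25%). C3H/HeJ had 0 in both directions (0.85% and 1.1%, 1.95% in all), with 2 lower and 2 higher under array weights (4.45% and 5.05%). At an unadjusted p under 0.05, 0 members were lower and 1 higher in C3H/HeJ, 0 lower and 16 higher in B6C3F1/J and 14 lower and 1 higher in C57BL6/J. Shares of all genes are given for adjusted calls only. These unadjusted counts, and those of the marker lists below, therefore have no background beside them. The members' median difference in B6C3F1/J was 0.32 with all arrays and 0.12 without the 2 arrays that stood apart. The diets did not overlap in 7 members in 129S1/SvImJ (2.05% of all genes), 4 in C57BL6/J (2.49%), 9 in CBA/J (12%) and 0 in C3H/HeJ (1.22%), DBA/2J (0.776%) and B6C3F1/J (1.21%). Single mice moved the smaller counts: without C57BL6/J control replicate 1, 4 or 7 or restricted replicate 1, 5, 7 or 8 the C57BL6/J count was 3 lower, without DBA/2J restricted replicate 1 the DBA/2J count was 5 lower, and without DBA/2J restricted replicate 5 or control replicate 5 or 8 its count was 0 higher. In 129S1/SvImJ 4 were higher without B6C3F1/J control replicate 2. At an adjusted p under 0.05, 22 of the 47 members were called in no strain, as were 51.5% of all genes.

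In 129S1/SvImJ 9 of the 10 lower members belonged to the 19S particle, led by Psmd1 (-1.02 ± 0.19), Psmd11 (-0.84 ± 0.17) and Psmd4 (-0.80 ± 0.17). Psmd11 signals there were 12.86 to 13.23 (median 12.95) in restricted mice and 13.46 to 14.24 (median 13.85) in control mice. Psmd4 was 11.63 to 12.23 (median 11.91) in restricted mice and 12.30 to 13.09 (median 12.78) in control mice. Neither gene overlapped between diets. Hepatocyte markers had a median difference of -0.44 in 129S1/SvImJ, with 0 of 7 called and 5 lower at an unadjusted p under 0.05, and their part in the 19S values was not tested. In C57BL6/J 4 of 5 belonged to the 19S particle (Psmd1, Psmd12, Psmd11 and Psmc2), with a median of -0.41 over its 17 genes. Hepatocyte markers there had a median of -0.31, with 0 of 7 called and 0 at an unadjusted p under 0.05. Without the 2 arrays, which are of other strains, 11 members were lower in C57BL6/J (3.56% of all genes).

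In CBA/J the lower members were Psma5, Psma6, Psmc1, Psmc2, Psmc6, Psmd6, Psmd12, Psmd14, Psme4 and Psmg2. Psme4, the large nuclear activator PA200, showed the strongest fall (-1.07 ± 0.22), at 10.61 to 11.71 (median 11.15) in restricted mice and 11.99 to 12.53 (median 12.16) in control mice. The median of all genes in CBA/J was 0.31, but 0.07 under quantile normalization and 0.17 on the 75th percentile, so a difference there is to be read against that shift. The 17 genes of the 19S particle had a median of -0.31 and the 16 core genes of 0.02. When the fit held each array's median, CBA/J had 4 lower and 23 higher members (11.5% and 21.3% of all genes). The median of the 19S genes in CBA/J was then 0.35, the opposite sign. Array medians ran from 6.99 to 7.5 in CBA/J restricted and from 6.42 to 6.63 in control mice. As these do not overlap, diet and array median cannot be told apart in CBA/J. The 19S median there was -0.15 under quantile normalization, -0.46 on the 75th percentile, -0.05 with the mean of probe sets and -0.31 without the 2 arrays. Members' median r with the array median was -0.53 within groups, and -0.08 without these 2 arrays.

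In DBA/2J Psmd2 (-0.85 ± 0.18) and Psmd1 were lower with Psmb9, and Psma6 was higher (0.51 ± 0.15). A fit of the DBA/2J groups alone called 0 lower and 0 higher (0.58% and 0.344% of all genes), so all 4 calls were lost there. Psma6 signals were 12.85 to 13.88 (median 13.15) in DBA/2J restricted mice and 12.41 to 13.07 (median 12.69) in control mice. The same gene was lower in CBA/J (-0.47 ± 0.15). Psmd3 likewise was lower in 129S1/SvImJ (-0.51 ± 0.16) and higher in CBA/J (0.47 ± 0.16). These were the 2 members called in opposite directions in different strains, against 1.4% of all genes. In B6C3F1/J the higher members were Psmb2, Psmb5, Psmd9, Psmd13 and Psmf1. Psmb2, a core beta subunit, ran from 11.56 to 12.04 (median 11.80) in restricted mice and from 9.61 to 11.57 (median 10.79) in control mice. Without B6C3F1/J control replicate 2 the B6C3F1/J count was 1, and without DBA/2J restricted replicate 6 it was 12. It was 9 without B6C3F1/J control replicate 5 or 8, 8 without control replicate 6 and 3 without restricted replicate 5.

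**Figure D3:**
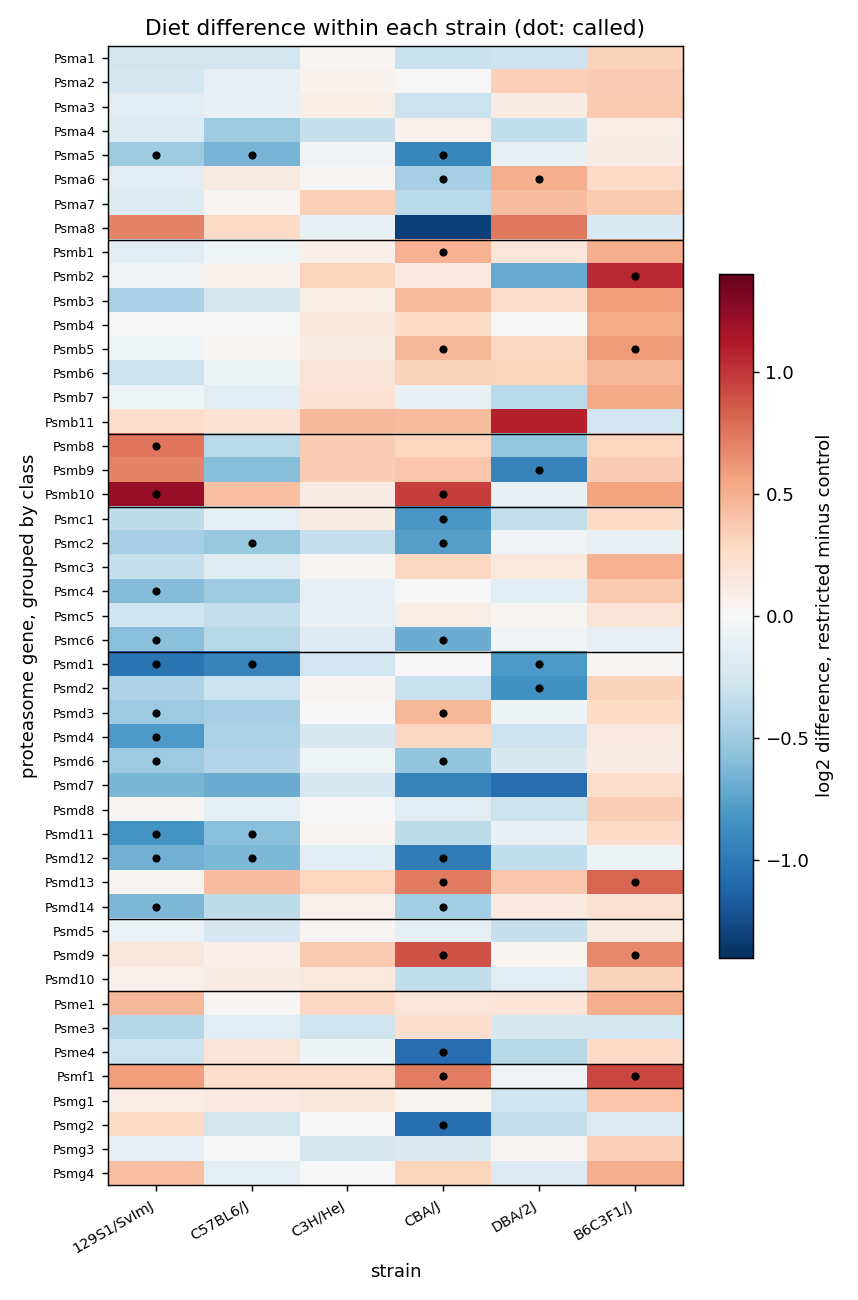
Diet difference of each proteasome gene in each strain. Colour gives the log2 difference, restricted minus control, for 47 genes (rows, by class) and 6 strains (columns), and a dot marks a call. The Psmc and Psmd rows are mostly blue in 129S1/SvImJ and C57BL6/J, C3H/HeJ has no dot, and B6C3F1/J has 5 dots, all in red cells.

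The average of all 17 genes of the 19S particle in each mouse is given as a description. In 129S1/SvImJ it ran from 11.39 to 11.73 in restricted mice and from 11.88 to 12.21 in control mice, with no overlap. The C57BL6/J values were 11.40 to 12.11 in restricted mice and 11.85 to 12.12 in control mice, where a restricted mouse reached the control range. C3H/HeJ restricted mice (11.36 to 11.95) and control mice (11.56 to 11.83) overlapped throughout. In DBA/2J and B6C3F1/J the lowest mouse was the array that stood apart, at 10.45 (DBA/2J restricted) and 9.86 (B6C3F1/J control). The 16 core genes overlapped between diets in every strain, as in 129S1/SvImJ with 11.67 to 12.29 in restricted mice and 11.94 to 12.54 in control mice.

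**Figure D4:**
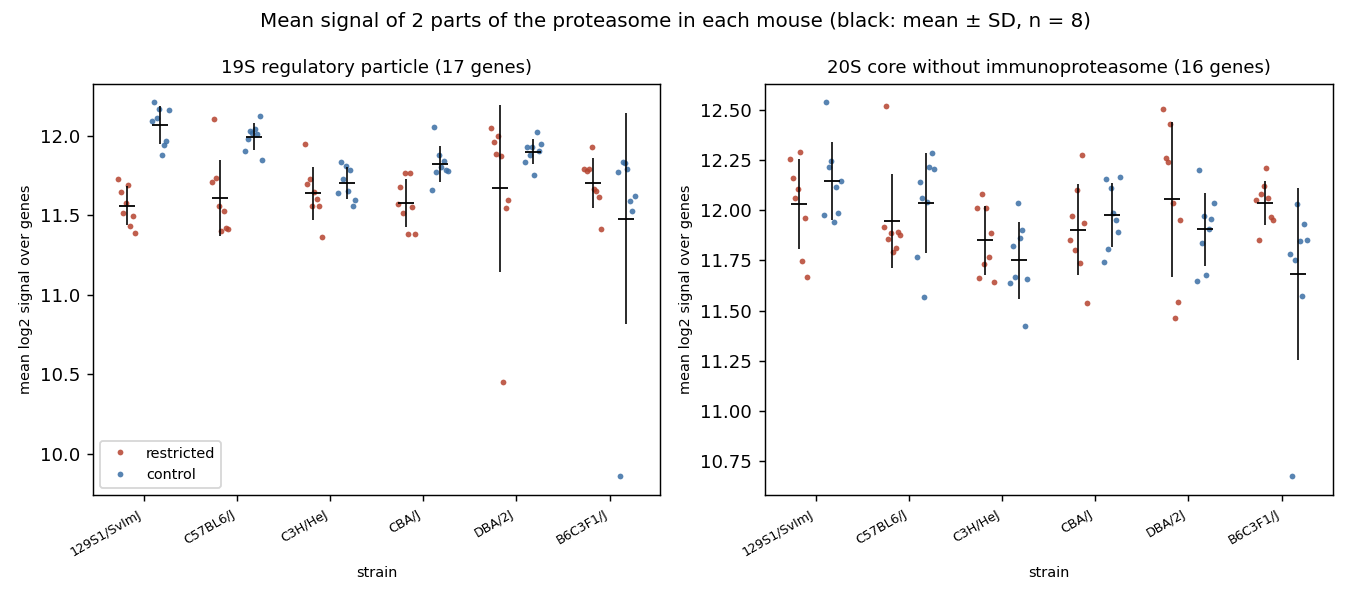
Mean log2 signal over the genes of the 19S particle (left) and of the 20S core without the immunoproteasome (right) in each mouse. Restricted mice stand left of control mice in each strain, and black marks the mean ± SD of 8 mice. The diets separate in 129S1/SvImJ for the 19S particle (11.56 ± 0.12 restricted, 12.07 ± 0.12 control), but not for the core (12.03 ± 0.23 restricted, 12.14 ± 0.19 control). Of the 16 core genes, 13 had a difference below 0 in that strain, and the core mean includes the weakly measured Psma8 and Psmb11. The vertical axes do not start at 0.

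The test of whether the diet difference varied between strains, an F test with 5 degrees of freedom, called 19 of the 47 members, against 23.9% of all genes. The smallest adjusted p values were those of Psmb9 (9.59e-05), Psmb10 (0.000211), Psmd1 (0.000577), Psma5 (0.000583) and Psmb8 (0.000951). All 3 immunoproteasome subunits and 9 of 17 genes of the 19S particle were among the 19. Without CBA/J 7 members were called, and Psmd1 (adjusted p = 0.0591) and Psma5 (adjusted p = 0.115) no longer passed. Without the 2 arrays that stood apart, 27 were called. The share of 23.9% belongs to the fit of all arrays. No share of all genes is given for the fits without CBA/J or without the 2 arrays, so the counts of 7 and 27 have no background beside them.

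Psmb10 was the most changed immunoproteasome subunit. On average it was 1.44 times its control level (log2 0.53 ± 0.08, adjusted p = 1.25e-08), and within strains it was called in 129S1/SvImJ and CBA/J. In 129S1/SvImJ it ran from 10.38 to 11.43 (median 11.01) in restricted mice and from 9.16 to 10.15 (median 9.87) in control mice. The diets did not overlap, and the fold was 2.32 (log2 1.22 ± 0.19, adjusted p = 7.09e-07). In CBA/J it ran from 11.45 to 12.79 (median 11.71) in restricted mice and from 10.34 to 11.09 (median 10.91) in control mice, again without overlap (log2 0.97 ± 0.19). In DBA/2J the ranges were 10.18 to 11.71 (median 10.98) in restricted mice and 10.72 to 11.24 (median 11.13) in control mice (log2 -0.10 ± 0.19). Psmb10 kept its averaged call in 13 of 13 other settings.

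Psmb8 and Psmb9 differed in sign between strains, and their averages (0.13 ± 0.08 and 0.04 ± 0.10) were not called. In 129S1/SvImJ Psmb8 rose by 0.75 ± 0.20 (adjusted p = 0.0102), at 9.44 to 10.81 (median 10.32) in restricted mice and 8.91 to 9.84 (median 9.51) in control mice. That call was lost under quantile normalization (0.75, adjusted p = 0.0623), centring on the 75th percentile and the mean of its probe sets. Psmb9 in the same strain differed by 0.70 ± 0.23 (adjusted p = 0.0627). In DBA/2J Psmb9 fell by 0.94 on the log2 scale (adjusted p = 0.00481), at 10 to 11.73 (median 10.52) in restricted mice and 11.15 to 11.97 (median 11.68) in control mice. The call was lost in a fit of the DBA/2J groups alone (adjusted p = 0.0596). Psmb8 in DBA/2J differed by -0.54 ± 0.20 and was not called. Restricted mice of DBA/2J, CBA/J and C3H/HeJ had Psmb9 SDs of 0.65, 0.70 and 0.71, against 0.28, 0.15 and 0.14 in control mice.

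**Figure D5:**
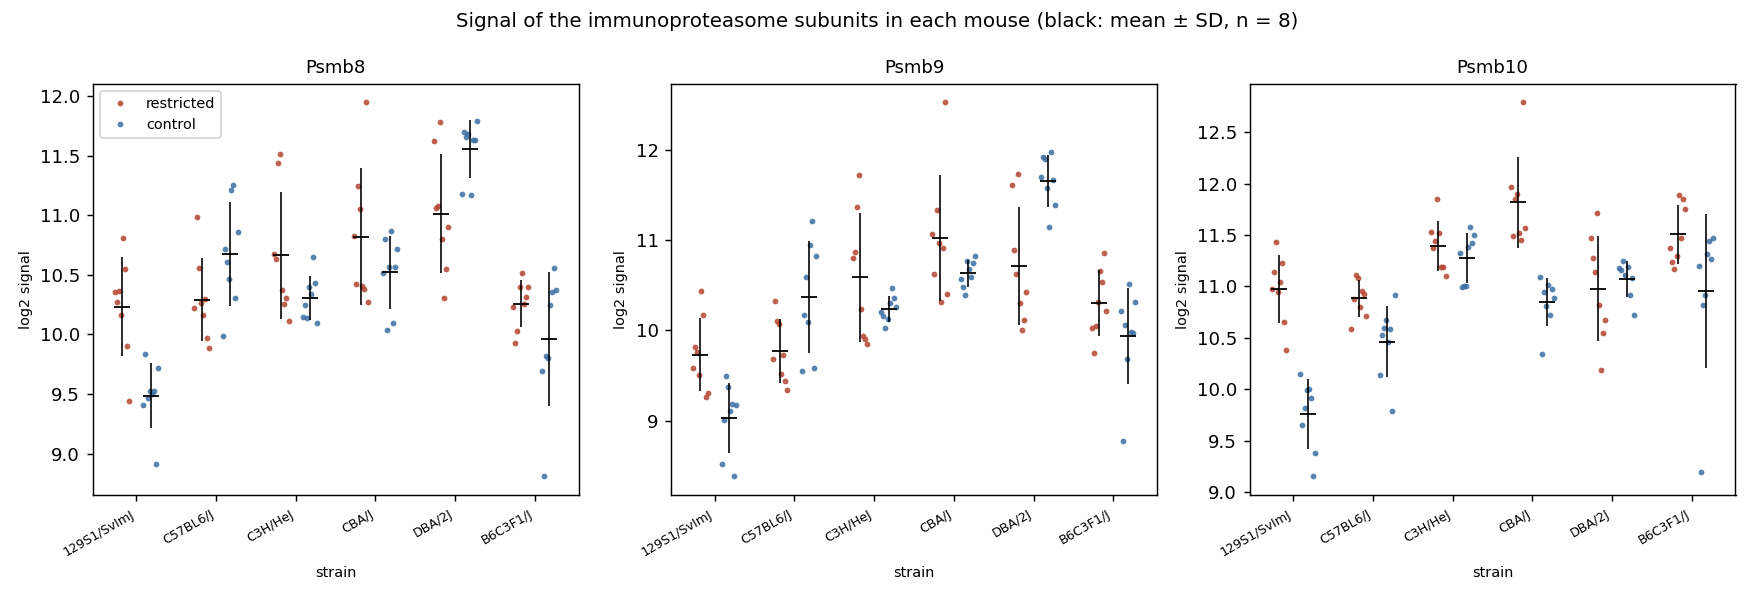
Signal of Psmb8, Psmb9 and Psmb10 in each mouse. Points give the log2 signal of each mouse by strain, restricted left of control, and black marks the mean ± SD of 8 mice. In 129S1/SvImJ restricted mice lie higher for Psmb10 (10.97 ± 0.33 restricted, 9.76 ± 0.34 control), and in DBA/2J they lie lower for Psmb9 (10.71 ± 0.65 restricted, 11.65 ± 0.28 control). The vertical axes do not start at 0.

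Markers of immune cells were set beside these values, since such cells carry the immunoproteasome. In 129S1/SvImJ 0 of 10 leukocyte, 0 of 8 Kupffer cell and 0 of 7 T, NK and B cell markers were called in either direction, and 1 leukocyte marker was higher at an unadjusted p under 0.05. Summed leukocyte signal there was 12.06 to 13.58 (log2) in restricted mice and 12.27 to 12.92 in control mice. In CBA/J 4 leukocyte markers were called higher and 2 lower, 3 Kupffer cell markers were higher, and 4 T, NK and B cell markers were higher, in a strain where 25.1% of all genes were higher and 15.6% lower. Summed T, NK and B cell signal was 9.69 to 10.78 in CBA/J restricted mice and 8.27 to 9.44 in CBA/J control mice, though 4 of the 7 markers were on average below the array median in restricted and 6 in control mice. In DBA/2J 0 markers of the 3 lists were called, and 1 leukocyte marker was lower at an unadjusted p under 0.05. In C57BL6/J 1 leukocyte and 1 Kupffer cell marker were called lower, with 1.85% of all genes lower there. At an unadjusted p under 0.05, 4 leukocyte and 6 Kupffer cell markers were lower and 0 higher. Their medians were -0.60 and -0.68. Psmb8 averaged 10.29 in C57BL6/J restricted and 10.68 in control mice, Psmb9 9.78 and 10.37 and Psmb10 10.88 and 10.46, with 0 called. C3H/HeJ and B6C3F1/J had 0 markers of these lists called. The part of immune cells in the CBA/J and C57BL6/J differences was not tested.

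Interferon regulators and antigen-processing partners moved in mixed directions on average, with 3 of 15 higher and 3 lower (median 0.13), against 15.2% higher and 12.4% lower among all genes. Without CBA/J 0 of the 15 were called. Tap2, a subunit of the peptide transporter that feeds antigen presentation, rose by 0.35 ± 0.11 (adjusted p = 0.00728), with 0.82 in 129S1/SvImJ, 1.11 in CBA/J and -0.52 in DBA/2J. The endoplasmic reticulum chaperones Canx (-0.34 ± 0.08) and Calr (-0.24 ± 0.07) were lower. Canx was -1.74 in CBA/J, and without that strain Canx averaged -0.06, Calr -0.15 and Tap2 0.20, none of them called. Within groups, deviations of Psmb8 and Psmb9 followed each other with r = 0.85 over 96 arrays and 0.83 without the 2 arrays that stood apart, and Psmb10 followed Psme1 with r = 0.77 and 0.60. Their r with the interferon regulator Irf1 was 0.12, 0.19 and 0.25 for Psmb8, Psmb9 and Psmb10, and 0.23, 0.28 and 0.49 without the 2 arrays. Over 96 arrays r was -0.12, 0.03 and 0.21 with Nlrc5, 0.15, 0.31 and 0.25 with Tap1, and 0.33, 0.31 and 0.61 with B2m. Without the 2 arrays r was -0.17, 0 and 0.19 with Nlrc5, 0.22, 0.38 and 0.43 with Tap1, and 0.08, 0.12 and 0.43 with B2m. With the core subunits Psmb5, Psmb6 and Psmb7, r ran from 0.41 to 0.64, and from 0.09 to 0.55 without the 2 arrays. Irf1 was chosen after its values were seen.

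On the control diet the strains differed in 29 of 47 members, against 43.6% of all genes (F test over 6 groups). The immunoproteasome subunits had the smallest p values. Psmb9 was lowest in 129S1/SvImJ, at 8.39 to 9.50 (median 9.14), and highest in DBA/2J, at 11.15 to 11.97 (median 11.68), with the other 4 strains between 8.78 and 11.21. Against the mean of the other 5 strains, Psmb9 differed by -1.53 ± 0.18 in 129S1/SvImJ and by 1.61 ± 0.18 in DBA/2J (F test adjusted p = 6.21e-15). Psmb8 showed -1.12 ± 0.15 and 1.37 ± 0.15 in these strains (F test adjusted p = 5.03e-14). For Psmb10 the 129S1/SvImJ difference was -1.16 ± 0.14, and the highest control mean was 11.28 ± 0.24 (SD, n = 8) in C3H/HeJ, next to 11.07 ± 0.18 in DBA/2J, which lie within each other's spread. So the restricted 129S1/SvImJ level of Psmb10 (10.97 ± 0.33) lay in the range of the other strains' control means, from 10.46 to 11.28. Psmb9 and Psmb10 have 1 probe set each, and the other Psmb8 probe set had a mean signal of only 5.88. Each of these strain differences thus rests on a single probe set, and whether it reads all strains alike was not tested.

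Of the other members, Psma1, a core alpha subunit, was highest on the control diet in C57BL6/J (12.20 ± 0.23, SD, n = 8) and lowest in DBA/2J (11.03 ± 0.35), with 12.01 ± 0.26 in 129S1/SvImJ close to the top. Its F test adjusted p was 1.37e-09. Psmd11 was higher in 129S1/SvImJ than in the other 5 strains (0.75 ± 0.13, adjusted p = 1.12e-05). Psmg2 was higher in C57BL6/J (0.71 ± 0.16) and CBA/J (0.56 ± 0.16), and lower in DBA/2J (-0.48 ± 0.16) and 129S1/SvImJ (-0.44 ± 0.16). In 129S1/SvImJ 8 members were higher and 5 lower than in the other strains (6.17% and 6.57% of all genes). Higher and lower counts were 9 and 2 in C57BL6/J (8.68% and 7.59%), 1 and 3 in C3H/HeJ (5.83% and 4.18%), 3 and 2 in CBA/J (5.52% and 6.59%), and 6 and 3 in DBA/2J (7.25% and 7.36%). B6C3F1/J had 0 higher and 22 lower (3.48% and 7.67%), but 1 higher and 5 lower without the 2 arrays that stood apart. The shares are of the fit of all arrays, and none is given for the fit without the 2 arrays.

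B6C3F1/J control mice were set against the mean of their parent strains, C57BL6/J and C3H/HeJ. Of 47 members 11 were called and all were lower, against 2.72% higher and 6.22% lower among all genes (8.94% in all). Psmb5 (-0.58 ± 0.13), Psmc5 (-0.54 ± 0.13) and Psma1 (-0.54 ± 0.15) had the smallest p values. The count fell to 1 without B6C3F1/J control replicate 2. Without both arrays that stood apart 3 were called, against 4.1% lower and 4.04% higher among all genes. Of these 3, Psmb5 (-0.39 ± 0.10) and Psmc5 (-0.36 ± 0.11) were lower and Psmf1 (0.51 ± 0.17) was higher.

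Genes that work with the proteasome but fall outside the symbol pattern were also read. Of 11 measured proteasome-associated proteins and assembly factors, 4 were lower and 0 higher on average. Among all genes 12.4% were lower and 15.2% higher, to be set beside this count and those of the lists below. Usp14, a deubiquitinase of the 19S particle, fell by 0.56 on the log2 scale (adjusted p = 5.2e-09), the ubiquitin ligase Ube3a by 0.61 and Zfand2a, a stress-induced cofactor, by 0.50. Ube3a was -2.24 in CBA/J and 0.08 in DBA/2J, and without CBA/J its average was -0.28 ± 0.09 (adjusted p = 0.0176). Of 12 ubiquitin shuttle factors and p97 partners 6 were lower and 1 higher. Ubxn4, which brings p97 to the endoplasmic reticulum, fell by 0.65 (adjusted p = 8.82e-21), the p97 cofactor Nsfl1c by 0.49 and the shuttle Rad23b by 0.45, each below 0 in all 6 strains. Of 2 measured genes for ubiquitin or its activating enzymes, Uba6 was lower (-0.44 ± 0.09). Among 15 regulators of proteasome transcription 2 were higher (Foxo1 0.64 ± 0.11, Mafk 0.37 ± 0.10) and 1 lower (Nfya -0.25 ± 0.10). Mafk was 1.42 in CBA/J, and without CBA/J Mafk (0.16, adjusted p = 0.379) and Nfya (-0.24, adjusted p = 0.113) were not called. Nfe2l1, the main activator of proteasome genes, was not called on average (-0.12 ± 0.06, adjusted p = 0.175). It was chosen after its values were seen, with -0.59 in 129S1/SvImJ, -0.28 in C57BL6/J and 0.25 in CBA/J.

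Over the 1081 pairs of proteasome genes, deviations from the group means had a median r of 0.44 (range -0.33 to 0.94, 96 arrays), and the mean r was 0.39, against 0.005 over all gene pairs. Without the 2 arrays that stood apart the members' median r was 0.23 (range -0.66 to 0.92) and the mean 0.22. Among the 3 immunoproteasome subunits r was 0.68 to 0.85, and 0.61 to 0.83 without them. Such r values share the arrays and their scaling. A fit of every kept probe set called 14 members lower and 6 higher by the probe sets used here. Of these, 13 had another kept probe set, and in 9 another was called in the same direction. Psmc4 was not among them, since its probe set used here was not called in that limma fit (adjusted p = 0.0608). In that fit 0 members had probe sets called in opposite directions. For Psmc6 the other 2 probe sets differed by more (-0.87 ± 0.11 and -0.73 ± 0.17) than the one used (-0.34 ± 0.07), and for Psmd11 2 of the others did (-0.88 ± 0.10 and -0.57 ± 0.10, against -0.26 ± 0.07).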

How the data were processed

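Per the labels, total liver RNA of 96 male mice was made into biotin-labelled cRNA and hybridised to Affymetrix mouse arrays, 1 mouse per array. The authors deposited an intensity per probe set, made with MAS5 per the submitters' processing notes, which name no version. Each array had been scaled to a trimmed mean of about 500, as read from the values. Groups of 8 mice came from the labels.

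Signals were turned into log2 values. Of 45101 probe sets, 64 controls were left out, and 32999 with a signal at or above the array median in at least 8 arrays were kept. A gene (14816) is its kept probe set with 1 symbol and the highest mean log2 signal. All 49 genes of the pattern, on 94 of 103 probe sets, passed. R 4.3.3 and limma 3.58.1 fitted 12 group means (lmFit, eBayes with trend and robust variances), and p was adjusted by Benjamini-Hochberg over all genes at 0.05. The number of arrays limits the precision. The code was tested on simulated data. Members and lists were chosen with earlier results of these data known. Named members were up to 8 with the smallest p for the averaged diet difference, the immunoproteasome and Psmb5, Psmb6 and Psmb7, the smallest p of the other tests, any called member, and up to 3 genes of each list. Endothelial, stellate and bile duct markers were read too: on average 3 of 6, 2 of 7 and 1 of 4 were higher, and 0, 1 and 0 lower. Of the hepatocyte markers 5 of 7 were higher (0 of 7 without CBA/J). Among all genes 15.2% were higher and 12.4% lower. Deviations of same-numbered restricted and control mice of a strain had r above 0.1 in 5 of 48 pairs. Over same-numbered arrays of different groups the median r was 0. The main fit therefore did not pair mice by number, though such values cannot show that no pairing or shared batch exists. Alternatives covered scaling, filters, probe sets, array weights, samples and covariates. Figures used Python 3.11.15 with matplotlib 3.10.9.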

Additional observations from a re-analysis of the deposited data

Results flagged for a closer look

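In groups of 8 mice, a highest or lowest value was marked when its gap to the nearest mouse made up more of the group's range than Dixon's 95% critical value allows, over 192 combinations of the 16 named genes and 12 groups. Chance marks about 1 in 20 groups, and 32 were marked. B6C3F1/J control replicate 2 was low in 14 genes, with a gap share of 0.716 in Psmb10, 0.751 in Psmd12, 0.775 in Psmd1, 0.785 in Psmc2, 0.853 in Psma5, 0.72 in Psmd9, 0.75 in Psmd13, 0.672 in Psmc6, 0.669 in Psmb5, 0.86 in Psmb6, 0.861 in Psmb7, 0.694 in Psma1, 0.745 in Psmd11 and 0.582 in Psmg2. DBA/2J restricted replicate 6 was low in Psmd12 (0.721), Psmd1 (0.796), Psmd9 (0.552), Psmb7 (0.809) and Psmg2 (0.546), and high in Psmc2 (0.745) and Psma5 (0.661). C57BL6/J restricted replicate 2 was high in Psmd13 (0.531), Psmb5 (0.696), Psmb6 (0.679) and Psmb7 (0.7). CBA/J restricted replicate 7 was high in Psmb10 (0.617) and Psmb9 (0.54). The others were Psmd12 in CBA/J control replicate 2 (0.577, high), Psmc2 in 129S1/SvImJ control replicate 2 (0.563, low), Psmb8 in 129S1/SvImJ control replicate 7 (0.534, low), Psmd11 in C57BL6/J restricted replicate 6 (0.617, high) and Psmd11 in DBA/2J restricted replicate 4 (0.66, low). The cause was not tested.

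The diet difference varied between strains in 19 members by limma's F test. The adjusted p values were 9.59e-05 for Psmb9, 0.000211 for Psmb10, 0.000577 for Psmd1, 0.000583 for Psma5, 0.000951 for Psmb8, 0.000991 for Psmd3, 0.00158 for Psmd4, 0.00176 for Psmd11, 0.00239 for Psmc1, 0.00495 for Psma6, 0.00516 for Psmb2, 0.00541 for Psmc4, 0.00544 for Psmg2, 0.00596 for Psmd2, 0.00625 for Psme4, 0.00646 for Psmd14, 0.00871 for Psmd9, 0.0158 for Psmd12 and 0.0264 for Psmb3. Psmb3, a core beta subunit, had its lowest difference in 129S1/SvImJ (-0.45 ± 0.21) and its highest in B6C3F1/J (0.59 ± 0.21).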

How the results depend on the processing

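Main counts were 15 lower and 6 higher on average, 2 higher in 129S1/SvImJ, 5 lower and 0 higher in C57BL6/J, 10 lower and 7 higher in CBA/J, 3 lower and 1 higher in DBA/2J, 5 higher in B6C3F1/J, 19 with an interaction and 11 that differ between B6C3F1/J and its parents. Quantile normalization gave 8 lower in C57BL6/J, 1 higher in 129S1/SvImJ and 2 higher in DBA/2J, and turned Psmb7 to -0.07. Centring on the 75th percentile gave 4 lower (main 10) and 1 higher in 129S1/SvImJ, 1 lower in C57BL6/J, 2 higher in CBA/J, 0 higher in DBA/2J and 6 for the cross, and turned Psmb7 to -0.01. The mean of probe sets gave 3 lower in C57BL6/J, 1 higher in 129S1/SvImJ, 0 higher in DBA/2J, 3 higher in B6C3F1/J and 7 for the cross, and turned Psmf1 to -0.03. Array weights gave 11 higher on average, 22 lower and 1 higher in C57BL6/J, 2 lower and 2 higher in C3H/HeJ, 6 higher in 129S1/SvImJ, 11 higher in CBA/J, 2 higher in DBA/2J, an interaction in 32 and 6 for the cross, and turned Psmb9 to -0.06. A fit of only the groups compared gave 10 lower and 1 higher in C57BL6/J, 0 lower and 0 higher in DBA/2J, 4 higher in 129S1/SvImJ, 2 higher in C3H/HeJ, 1 higher in B6C3F1/J and 3 for the cross. Without the 2 arrays with a median above 8 there were 11 higher on average, 11 lower in C57BL6/J, 5 higher in 129S1/SvImJ, 5 higher in DBA/2J, 3 higher in B6C3F1/J and 3 for the cross. The array median as a covariate gave 13 higher on average, 10 lower in C57BL6/J, 4 lower and 23 higher in CBA/J, 4 higher in 129S1/SvImJ, 6 higher in DBA/2J, 3 higher in B6C3F1/J, an interaction in 31 and 0 for the cross. Without CBA/J 7 had an interaction and Psmb9 turned to -0.03. Shares of all genes moved with the settings too, and none is given for the interaction counts of 7, 31 and 32. Array weights gave 9.25% lower and 11.6% higher in C57BL6/J. The covariate gave 11.5% lower and 21.3% higher in CBA/J, and 11.9% and 17.2% on average. The causes were not tested. Leaving out each of the 96 arrays in turn, an alternative chosen after seeing the data (as were the correlations without the 2 arrays and the pathway lists without CBA/J), gave 13 to 18 lower and 6 to 11 higher on average, 3 to 7 lower in C57BL6/J, 3 to 5 lower and 0 to 1 higher in DBA/2J, 2 to 4 higher in 129S1/SvImJ, 1 to 12 higher in B6C3F1/J and 1 to 14 for the cross. Of the 15 lower and 6 higher averaged calls, 10 and 6 were kept under quantile normalization, 11 and 6 on the 75th percentile, 11 and 4 with the mean of probe sets, 11 and 6 with the covariate and 10 and 6 without CBA/J; 14 or 15 and 6 were kept in the other settings. With the replicate block 15 and 6 were kept, and it changed no count by over 1.5 times. Probe sets near the array median, such as those of Psma8 and Psmb11, limit what can be said of these genes.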
